A study of Mus musculus with 6 samples.

Results

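Interval probes are a class of array probes that are named by a stretch of genome and a strand and not by a gene. All non-control probes whose systematic name has the form of a chromosome, a start, an end and the suffix F or R were taken, which gave 4449 of the 56605 probes on the array. They lie in 3229 intervals and 4061 interval strands on chromosomes 1 to 19 and X of the mouse build mm9, with 2227 probes on the F strand and 2222 on the R strand. Of the intervals, 1236 had probes on the F strand, 1161 on the R strand and 832 on both. Interval length ran from 62 to 538251 bases with a median of 7207. Such probes are designed on loci thought to give long intergenic noncoding RNA. The deposited files name no gene for them and hold no probe sequence, so whether an interval is intergenic and whether its RNA codes for protein was not tested. F and R are written here as given in the names, since the files do not define them.

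Long intergenic noncoding RNAs are transcripts that are capped, spliced and polyadenylated much like messenger RNA but are not known to be translated. They are often restricted to a few cell types, and some act in the nucleus on chromatin or on the transcription of neighbouring genes. A locus can be transcribed on both strands, for example from a promoter that fires in both directions or as a sense and antisense pair, and the RNAs of opposite strands can then be regulated separately. Strand-specific probes are therefore needed to follow each RNA.

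The arrays compared microglia, the resident macrophages of the brain, from young mice of 2 genotypes. Control mice, called B41HET, were Bhlhe41 dTomato-Cre/+, and knockout mice, called B41KO, were Bhlhe41 dTomato-Cre/dTomato-Cre. Both genotypes therefore carry the insertion, a dTomato and Cre cassette placed ahead of the Bhlhe41 start codon, on 1 allele in the controls and on both in the knockouts, and both make dTomato and Cre wherever the Bhlhe41 promoter is active. Bhlhe41 is a basic helix-loop-helix repressor that binds E-boxes. Cells were enriched on Percoll and sorted as CD45low CD11b+ Cx3cr1+, with 3 samples per genotype, and each was hybridised in 1 colour to 1 array. The methods and the reporting summary both describe each sample as a pool of several mice, whereas the labels give 3 mice per genotype. The p-values below measure the spread between 3 samples, which for pools is not the spread between animals.

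Between 70% and 75.5% of all probes were well above background on an array, and no probe was saturated. With 3 arrays per genotype, the precision of each value is limited. The 6 arrays shared 1 slide, with all B41HET samples and B41KO replicate 1 in row 1 and B41KO replicates 2 and 3 in row 2. One Bhlhe41 probe gave log2 intensities of 7.85, 7.58 and 7.40 in B41HET and 7.96, 7.90 and 7.96 in B41KO, and the other 7.95, 7.87 and 7.65 against 8.56, 7.84 and 8.21. The insertion ends translation and leaves the Bhlhe41 sequence in place, so these changes of 0.33 and 0.38 (limma, adjusted p = 0.203 and 0.33) do not check the genotype. All 12 microglia markers were well above background on all 6 arrays, and 1 of them, Fcrls, fell. Markers of other cell types differed between the genotypes as well. Of the neutrophil markers, 9 of 12 were lower in B41KO, and their summed level on the log2 scale was 14.94 to 15.11 in B41HET and 12.61 to 12.70 in B41KO. Of the border macrophage markers, 6 of 10 were lower, with summed levels of 11.27 to 11.39 and 10.69 to 10.84. Of 7 endothelial markers, Ly6c1 (-1.79) and Pecam1 (-1.68), which other blood cells also express, were lower, and they carried the summed level of 10.25 to 10.37 in B41HET and 8.87 to 9.005 in B41KO, while the other detected ones, Cldn5 (-0.13), Kdr (-0.01) and Slco1a4 (0.04), were not called. The erythroid markers rose in 2 of 5 (14.96 to 15.06 against 15.30 to 15.36). In the B cell and oligodendrocyte lists 1 of 6 markers was lower, and in the T and NK cell, astrocyte and neuron lists none was called by limma, with 1, 1 and 0 at an unadjusted p under 0.05. In bulk samples, fewer cells of a type and less RNA per cell cannot be told apart.

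Most interval probes gave a signal. The scanner software flags a probe as well above background on an array, and 3573 of the 4449 (80.3%) had this flag on at least 3 of the 6 arrays and are called detected here. The share was 79.4% for probes of curated coding transcripts and 61.5% for those of curated noncoding transcripts. On single arrays, between 3410 and 3653 interval probes were well above background (76.6% to 82.1%), with the lowest and the highest count both in B41KO samples. There were 3298 probes detected on all arrays, 204 on 1 or 2 arrays and 672 on none. Detection was 80% on the F strand and 80.6% on the R strand. With the probes split into 4 bins by interval length, it was 73.5% in the shortest bin, up to 1738 bases, and 80.7% to 84.5% in the others.

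None of the 6 brightest interval probes was called between the genotypes. The brightest, on the F strand of chr14:78924115-78938125, had log2 intensities of 16.38, 16.25 and 16.25 in B41HET replicates 1 to 3 and 16.20, 16.42 and 16.35 in B41KO replicates 1 to 3, and the genotypes overlapped. Probes at chr6:116092274-116144199, chr17:39982023-39983277, chr5:125861675-125880125 and chr7:82902248-82955248, all on the F strand, overlapped likewise. The probe at chr18:47313842-47315840 did not overlap, but its change of -0.12 did not pass the threshold. Changes over the 6 ran from -0.12 to 0.07 on the log2 scale, with adjusted p between 0.326 and 0.967 by limma. Signal depends on the probe as well as on the RNA, so this order is one of probes and not of transcript amounts.

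Between the genotypes, 176 of 3572 detected and tested interval probes were called, 80 higher and 96 lower in B41KO. A call needed an adjusted p of 0.05 or less by limma, with Benjamini-Hochberg adjustment over all probes of the array, and a log2 fold change of at least 0.5 in size. The called share was 4.93% (2.24% higher and 2.69% lower), and over all detected probes of the array it was 6.34% (2.06% higher and 4.28% lower). Thus the share that rose was near that of the array, and the share that fell was smaller. Over all 4448 tested interval probes, including those not detected, 93 were higher and 103 lower, or 4.41% against 5.07% for all tested probes (2.09% against 1.72% higher, 2.32% against 3.34% lower). With arrays aligned on their 75th percentile in place of their quantiles, the split was 129 higher and 81 lower. A normexp background correction gave 34 higher and 48 lower. Leaving out any 1 sample gave 23 to 41 higher and 36 to 65 lower, and replicate number as a block gave 0 and 0. Changes were mostly small. The 5th and the 95th percentile of the detected probes were -0.48 and 0.50, and 45 calls reached 1 or more in size, 22 higher and 23 lower.

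The genotypes did not overlap in all 176 called probes. Non-overlap alone was common, at 31.8% of detected interval probes (19.9% with B41KO above and 11.9% with B41KO below), against 36.2% of all detected probes (17.7% and 18.5%). The median change of detected interval probes was 0.064 and that of all detected probes 0.021, and 61.1% of the former and 53.3% of the latter were above 0. Levels over the detected interval probes correlated at 0.991 to 0.994 between samples of 1 genotype and at 0.983 to 0.989 between genotypes. Nearest the fold threshold, the probe on the R strand of chr2:181650800-181669350 rose by 0.51 and was called, and the one on the R strand of chr17:17628846-17641021, at -0.4997, was not.

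The largest decrease was on the F strand of chr14:70483555-70484159, a stretch of 605 bases. Its log2 intensity was 7.27, 7.34 and 7.20 in B41HET replicates 1 to 3 and 4.74, 5.11 and 4.69 in B41KO replicates 1 to 3. All B41KO samples lay far below all B41HET samples, with a gap of 2.09. The change was -2.43 ± 0.13 (SE, n = 3 per genotype, limma adjusted p = 0.0018), or 5.37-fold. With normexp correction, an alternative that starts from each spot's median signal and local background and adds an offset of 50 in place of the scanner's processed signal, the change was -1.37.

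The R strand of chr5:96591892-96606467 fell as well. Values were 9.80, 9.91 and 9.83 in B41HET and 8.41, 8.40 and 8.49 in B41KO, with a change of -1.41 ± 0.07 (limma adjusted p = 0.0016). The samples within each genotype stayed close together and the genotypes were well apart. All 3 detected probes on the F strand of the same interval also fell, by 0.77, 0.88 and 1.47, so that each of the 4 probes there was lower in B41KO. The largest of these was -0.80 with normexp correction and was still called. The R strand of chr6:47687025-47728525 fell from 10.85, 10.66 and 10.61 to 9.42, 9.26 and 9.40, a change of -1.34 ± 0.10 (adjusted p = 0.0038, or 0.0502 and not called with slide row as a block). On the F strand of chr12:111829967-111830904, values of 6.37, 6.47 and 6.21 in B41HET stood against 5.17, 4.78 and 5.12 in B41KO, with a change of -1.32 ± 0.14 (adjusted p = 0.0090). That change was -0.62 with normexp correction, still called, and the call was lost with slide row as a block as well (adjusted p = 0.0864). None of the B41KO samples reached a B41HET sample at these loci.

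The other 4 of the 8 largest decreases were near the background. The F strand of chr13:34693404-34717987 was well above background in all B41HET samples, at 4.30, 3.98 and 3.98, and in no B41KO sample, at 2.35, 2.64 and 3.05. It was therefore at least 2.19-fold lower in B41KO, taking the lowest signal that was well above background on each array as the floor (adjusted p = 0.0205 for the fitted change). A probe like this one counts as detected only through the genotype in which it is high, so its bound and its p, which was adjusted over all tested probes whether detected or not, are given here and below as a description. The probes at chr9:89159907-89160815 on the F strand, chr12:52944867-52971992 on the R strand and chr15:84752337-84752984 on the R strand were well above background in all B41HET samples and in 1, 1 and 2 of the B41KO samples. Their fitted changes were -1.88, -1.48 and -1.33, and since the B41KO values were in part not well above background, these sizes and their place among the 8 largest are uncertain. With normexp correction, which pulls dim values together, these 4 decreases shrank to between -0.24 and -0.26 and were not called. Neutrophil and border macrophage markers fell in the same samples as all decreases given here, and their part in them was not tested.

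The brightest of the 8 largest increases was on the F strand of chr2:181663381-181664097. The 3 B41HET samples gave 8.46, 8.34 and 8.26 and the 3 B41KO samples 9.73, 9.69 and 9.75. All B41KO samples stood above all B41HET samples, with a change of 1.37 ± 0.08 (adjusted p = 0.0021), or 2.58-fold. It lies inside a longer interval, chr2:181650800-181669350, whose R strand probe rose by 0.51 (10.80, 11.03 and 10.87 to 11.52, 11.41 and 11.28). In that cluster of 3 intervals, 3 of 4 detected probes were called higher and the fourth was at 0.34.

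**Figure D1:**
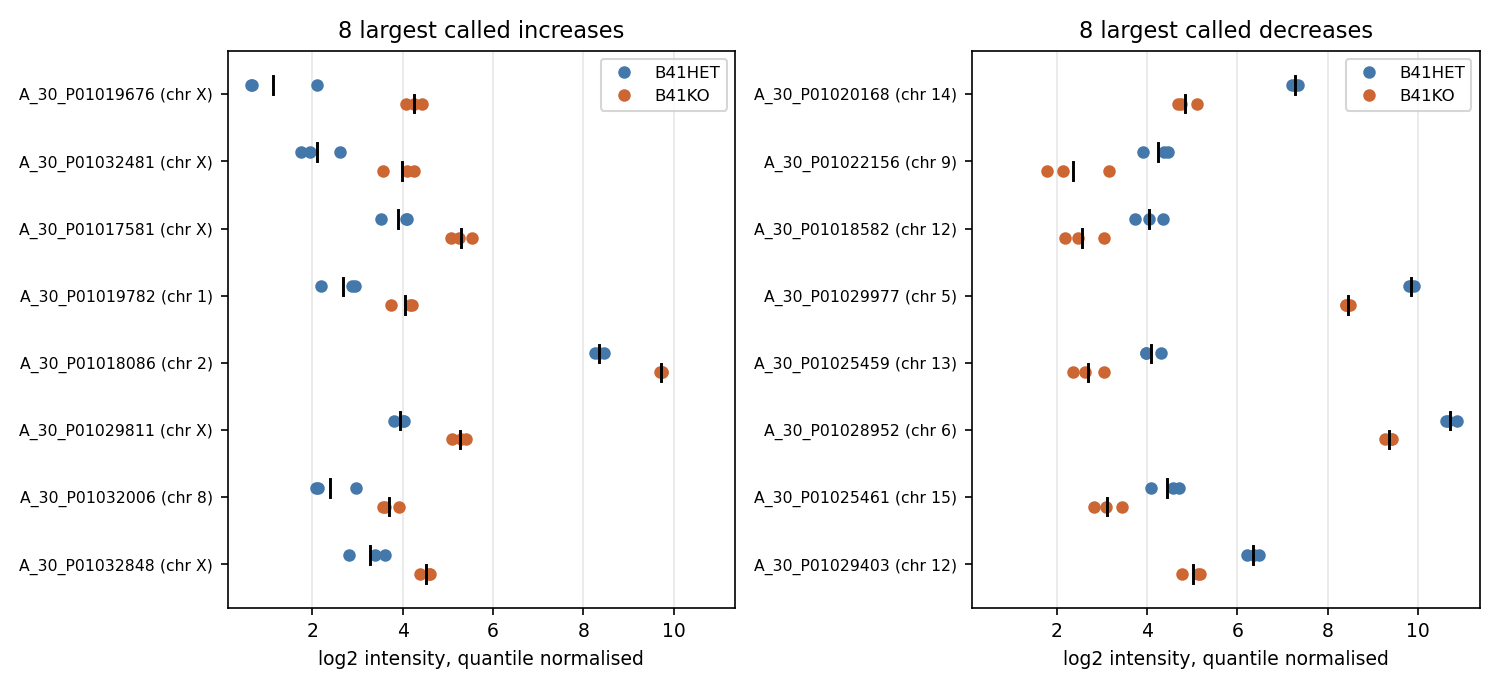
Log2 intensity of the 8 called interval probes with the largest increase (left) and the 8 with the largest decrease (right) in the 3 B41HET and 3 B41KO samples, with 1 point per sample and a bar at each mean. The genotypes do not overlap for any of the 16. The probes on chromosomes 2, 5, 6 and 14 are the brightest, and most of the others lie near the background.

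Of the 8 largest increases by fitted change, 5 were on chromosome X. Where B41HET values were in part or all not well above background, size and place among the 8 are uncertain. On the F strand of chrX:123306246-123307974, values were 2.10, 0.64 and 0.66 in B41HET and 4.44, 4.08 and 4.26 in B41KO. It was well above background in all B41KO samples and in no B41HET sample, which made it at least 2.70-fold higher (adjusted p = 0.017, as a description). The neighbouring chrX:123303474-123305531, also on the F strand, went from 2.62, 1.75 and 1.95 to 4.26, 3.57 and 4.11 and was at least 2.23-fold higher, again with no B41HET sample well above background (adjusted p = 0.0245, as a description). The R strand of chrX:120562611-120780555 rose by 1.39, the F strand of chrX:122648893-122652122 by 1.31 and the F strand of chrX:31867450-32124664 by 1.25, the last with 2 of 3 B41HET samples well above background. The remaining 2 were dim autosomal probes of likewise uncertain size and place, on the F strands of chr1:87343550-87362900 (at least 2.23-fold higher) and chr8:74333475-74384150 (1.30 on the log2 scale, with 1 B41HET sample well above background). With normexp correction the changes of these 7 shrank to between 0.16 and 0.42 and were not called, whereas the chr2 probe kept 1.21.

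Counts by chromosome also had a larger share of increases on X, with the dim X probes above among them. Of 127 detected interval probes on chromosome X, 19 were higher in B41KO (15%) and 3 lower (2.36%). The 19 became 7 with normexp correction, 7 to 9 with any 1 sample left out and 0 with replicate number as a block. On the autosomes 61 of 3446 were higher (1.77%), from 0% to 4.57% on single chromosomes, and 93 were lower (2.7%). The comparison by chromosome was chosen after its values were seen and is given as a description. Of 829 detected probes of RefSeq genes on X, 13 were higher (1.57%) and 37 lower (4.46%).

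**Figure D2:**
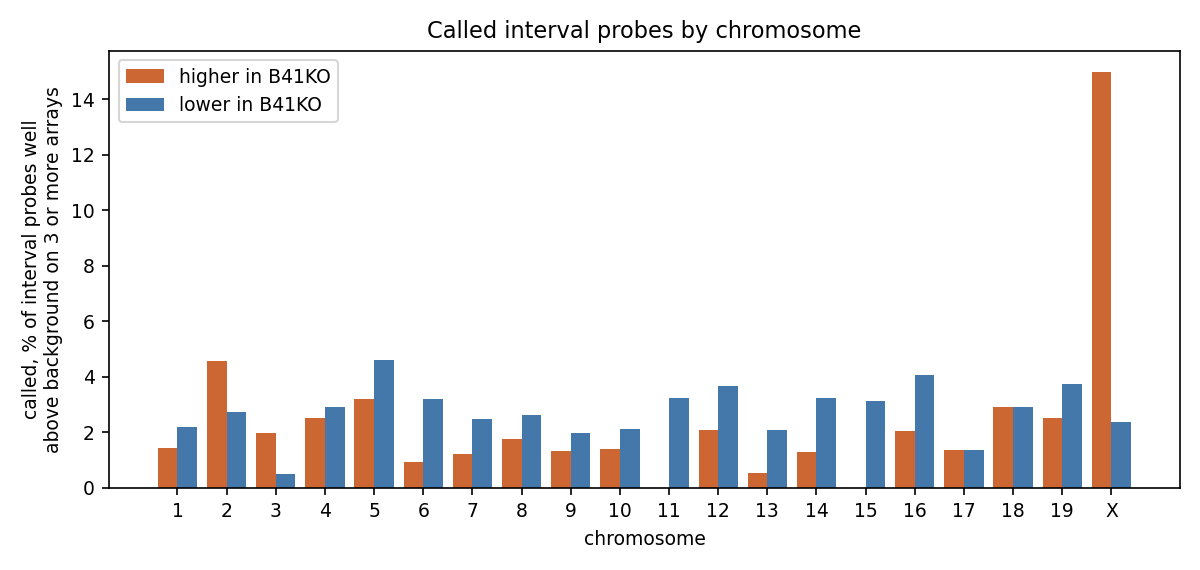
Share of detected interval probes that were called higher (orange) or lower (blue) in B41KO than in B41HET on each chromosome, in percent. Chromosome X stands at 15% higher, and the autosomes lie between 0% and 4.57%.

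The increases on X fell mainly into 2 places, which were also picked out after their values were seen. Between chrX:120134722 and chrX:123307974 lie 29 interval probes of 23 intervals, and 27 of them were detected. Of these, 12 were higher in B41KO, none was lower, 23 of 27 changes were above 0 and the median change was 0.66 (at an unadjusted limma p under 0.05, 19 were higher and 0 lower). Among the 12, the probes at chrX:123303474-123305531 and chrX:123306246-123307974 counted as detected only through B41KO, where they were high. The genotypes did not overlap, with B41KO above, in 19 of the 27, and over all detected probes of the array this share was 17.7%. The 12 calls came from 9 intervals. The remainder of X outside the 2 places had 95 detected probes with 3 higher and 3 lower and a median change of 0.07. Since the 2 places were picked by these values, the contrast with the remainder is a description.

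Several loci of this stretch were moderately bright. The 3 probes on the R strand of chrX:120324027-120326909 all rose, by 0.74, 1.01 and 1.13. The most intense of them gave 6.50, 6.53 and 6.67 in B41HET and 7.88, 7.59 and 7.62 in B41KO, with no overlap. Both probes on the F strand of chrX:121520904-121524132 rose, by 0.94 and 1.15, the latter from 6.78, 6.62 and 6.64 to 7.86, 7.79 and 7.83 (adjusted p = 0.0032). The R strand of chrX:121004130-121007360 rose by 1.06 (adjusted p = 0.0048). The change was not shared by every probe of the stretch. The R strand of chrX:120134722-120138152 changed by -0.05, the F strand of chrX:120963050-120963598 by 0.02 and the 2 probes on the R strand of chrX:121032646-121038407 by -0.11 and 0.26, none of them called. With normexp correction, 4 of the 27 were called higher, 24 were above 0 and the median was 0.21. With slide row as a block, which leaves B41KO replicate 1 against the B41HET samples of its own row, 2 were called, 22 were above 0 and the median was 0.64. Leaving out any 1 sample left 4 to 7 called higher.

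**Figure D3:**
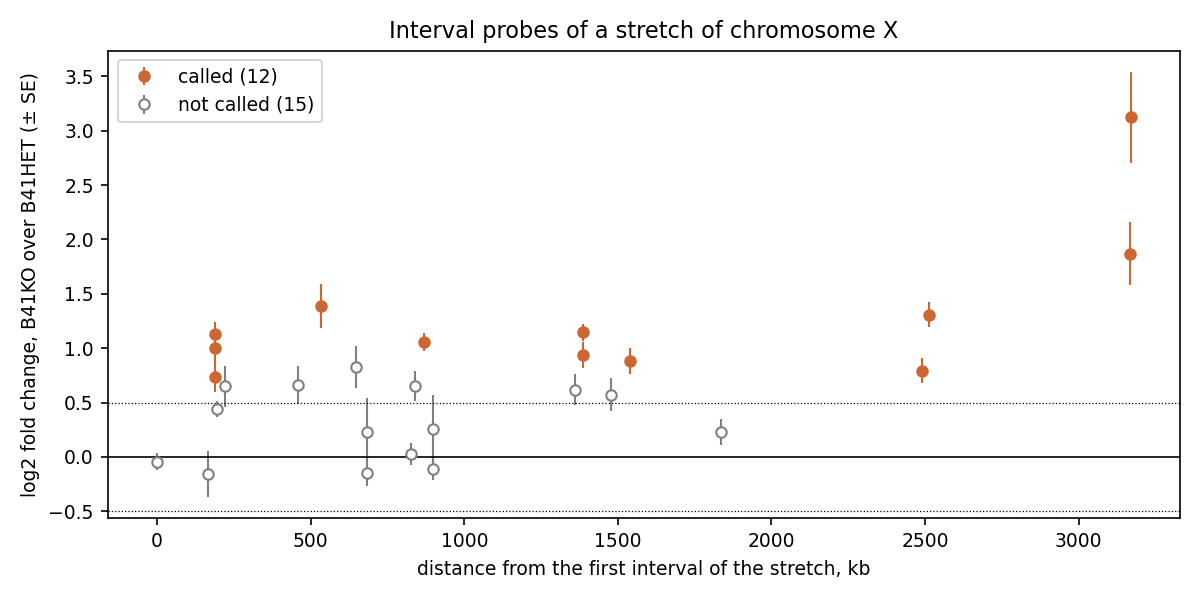
Log2 fold change of B41KO over B41HET with its SE (n = 3 per genotype) for the 27 detected interval probes of the stretch on chromosome X, against the distance of the interval's middle from the first one in kb. The 12 called probes (filled) are spread over the whole stretch and all lie above 0, and the dotted lines mark the fold threshold of 0.5.

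The other place, chrX:92119889-92157256, spans 37.4 kb and holds 5 probes of 4 intervals, all on the R strand. Of these, 4 were higher in B41KO, by 0.65 to 1.14, and the fifth changed by 0.30. The largest of these changes, on the R strand of chrX:92119889-92128492, was from a mean of 4.76 ± 0.05 (SD, n = 3) in B41HET to 5.90 ± 0.19 in B41KO (adjusted p = 0.0083). With normexp correction the 4 changes were 0.43 to 0.51 and 1 was called.

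Because the array has no interval probes on chromosome Y, RefSeq gene probes placed there were read beside those of X. Of 33 detected, 14 were higher in B41KO by limma (42.4%) and none was lower, while 2.06% of all detected probes of the array were higher. At an unadjusted limma p under 0.05, 1 was lower, of Uty. The 14 were probes of Sly and Ssty1, which belong to families of many near-identical copies on the mouse Y known for expression in sperm precursors, and of the predicted genes Gm20736, Gm20822, Gm20852, Gm20865, Gm20867 and Gm20877. Gm20867 went from 6.07, 6.42 and 5.97 to 7.78, 7.76 and 7.63, without overlap (1.57, adjusted p = 0.0060). Not every detected probe of these genes was called. The brightest of Sly changed by 0.12 and that of Ssty1 by 0.42 (limma adjusted p = 0.496 and 0.0744). A called Sly probe, at 2.56, 2.70 and 2.27 in B41HET, was well above background on only 3 arrays. The Y probes were not followed under alternative processing. The Y genes of broad expression were not called, with changes of -0.20 for Ddx3y, -0.49 for Uty (adjusted p = 0.0508) and 0.00 and -0.31 for the 2 probes of Eif2s3y. The 2 detected probes of Kdm5d changed by -0.23 and -0.29 and were not called either. Xist, the RNA that coats the inactive X of female cells, stayed near the background on all 6 arrays. Probes of a family with near-identical copies can share signal. Whether the X interval probes share sequence with each other or with these families was not tested, since no probe sequences or mm9 genome were at hand.

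Where an interval had probes on both strands, the strands could be compared within a sample. Of 832 such intervals, 620 were detected on both strands (74.5%), 98 on the F strand alone, 85 on the R strand alone and 29 on neither. Over the 620, with the brightest probe standing for each strand, 8 were called on both strands, 44 on 1 strand and 568 on neither. The changes of the strands had the same sign in 363 (58.5%), and they correlated at 0.234 across the 620 intervals, which share samples and normalisation. For comparison, different probes on 1 strand of an interval had the same sign in 59.9% of 232 cases and correlated at 0.365.

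**Figure D4:**
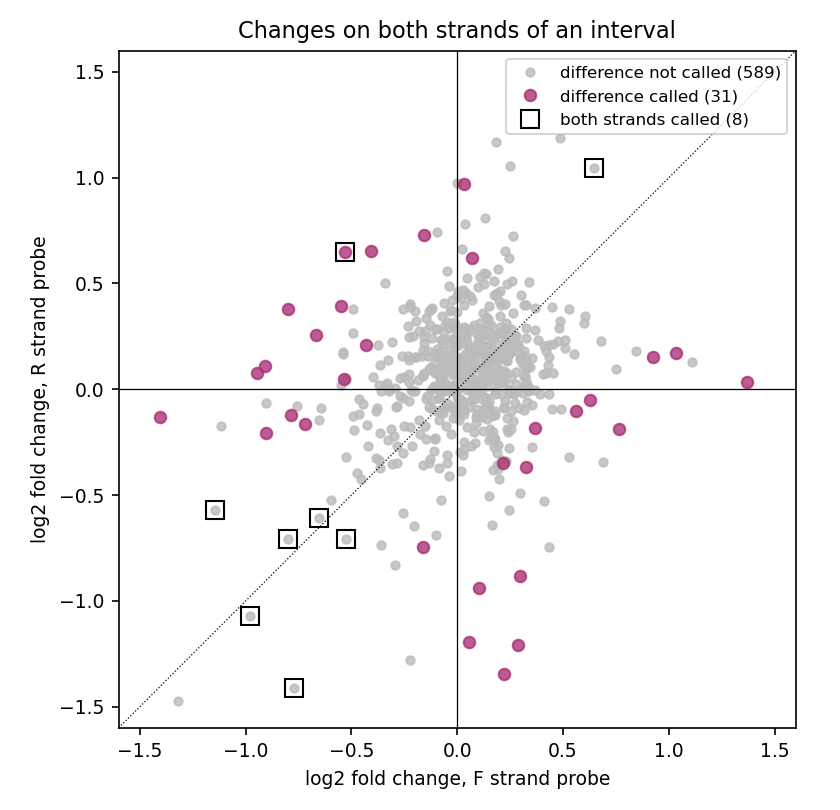
Log2 fold change (B41KO over B41HET) of the R strand probe against that of the F strand probe for the 620 intervals detected on both strands. The 31 intervals with a called strand difference (purple) lie away from the dotted line of equal change, and squares mark the 8 intervals called on both strands.

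The strand difference itself was tested by fitting the F minus R difference of each sample with limma. It was called in 31 of the 620 intervals (5%), with an adjusted p of 0.05 or less over the 620 and a difference of at least 0.5, and 135 had an unadjusted p under 0.05. Leaving out 1 sample gave 12 to 24. With slide row as a block 1 difference was called, that at chr6:129151512-129208737, and the other 5 of the 6 largest had an adjusted p of 0.0576 to 0.153 by limma. The F strand changed upward relative to R in 15 and the R strand relative to F in 16. The fitted changes of the strands had opposite signs in 21 of the 31. In 23 of the 31 a single strand was called by itself, in 1 both and in 7 neither. Conversely, 21 of the 44 intervals called on 1 strand had no called strand difference, so for them unequal change was not shown. Each strand was read by 1 probe, so a called difference between strands cannot be told apart from a difference between probes. The median size of the strand difference was 0.21. Where 1 strand had several detected probes, their changes had a median range of 0.24.

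At chr6:47687025-47728525 the difference was the largest. The F strand gave 13.11, 13.27 and 13.23 in B41HET and 13.27, 13.37 and 13.63 in B41KO, a change of 0.22 that was not called, and the R strand was the one that fell by 1.34. The strands' changes differed by 1.56 (95% interval 1.19 to 1.93, adjusted p = 0.0044). At chr6:129151512-129208737 the F strand went from 9.68, 9.83 and 9.80 to 10.05, 10.01 and 10.10 and the R strand from 9.99, 10.10 and 10.004 to 8.87, 8.74 and 8.85. Here every B41KO sample lay above the B41HET samples on one strand and below them on the other. The R strand fell by 1.21 (adjusted p = 0.0026), the F strand change of 0.28 was not called (adjusted p = 0.0902), and the difference was 1.49 (1.23 to 1.75, adjusted p = 0.0009).

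Of the other 4 named for their strand difference, chr2:32950586-32984936 fell on the R strand from 9.74, 9.73 and 9.78 to 8.57, 8.54 and 8.56, with 0.05 on the F strand. The difference there was 1.25 (0.88 to 1.62, adjusted p = 0.0069). At chr17:6265275-6362150 the F strand fell by 0.80 and the R strand changed by 0.38, a difference of -1.18 (adjusted p = 0.0086). The fitted differences at chr1:87343550-87362900 (1.34) and chr13:34693404-34717987 (-1.28) rest on an F strand probe that was well above background in 1 genotype only, so they are a description, and they were the 2 such intervals among the 31, of 4 among the 620. With normexp correction they became 0.16 and -0.16 and were not called. The R strands of these were bright and changed by 0.03 and -0.13.

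**Figure D5:**
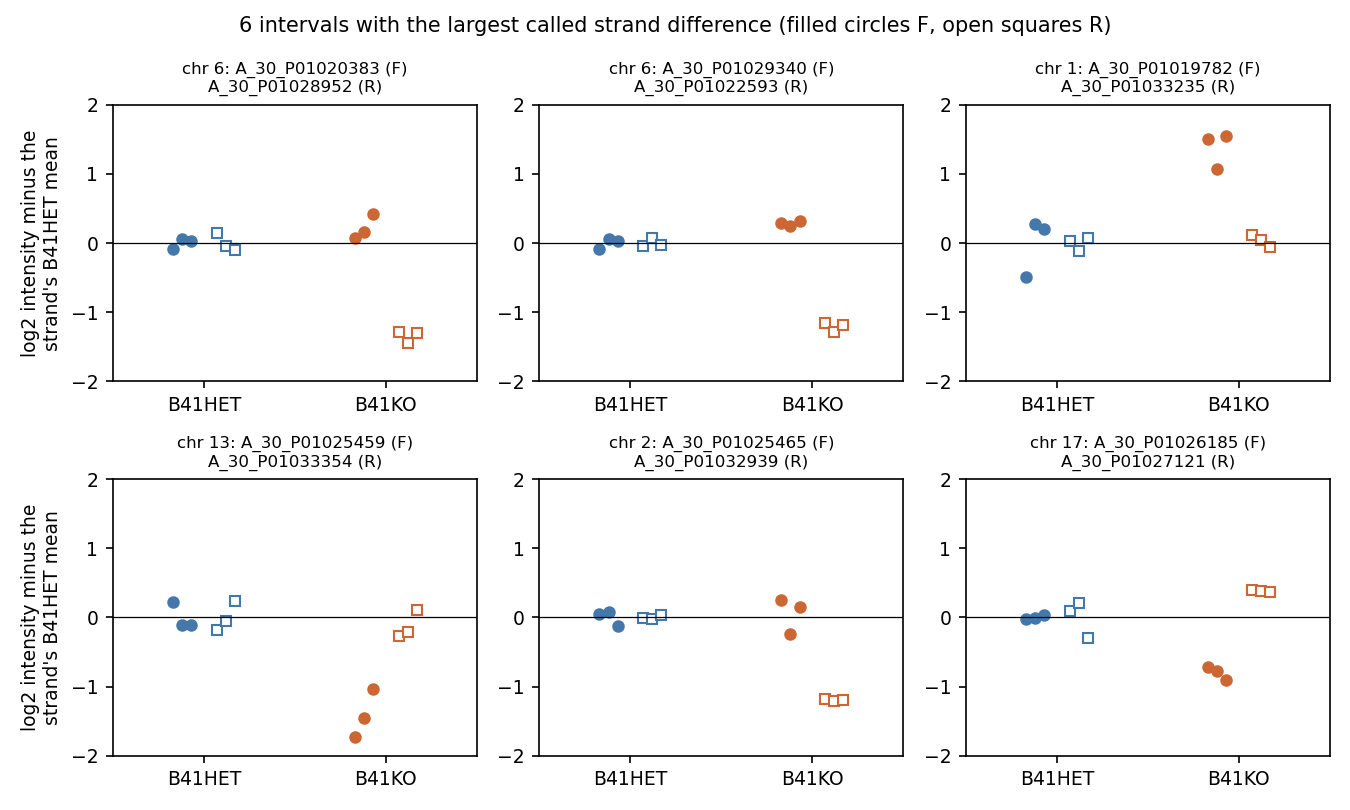
Log2 intensity of the F strand (filled circles) and R strand (open squares) probes in each of the 3 B41HET (blue) and 3 B41KO (orange) samples, relative to the B41HET mean of the same strand, for the 6 intervals with the largest called strand difference. In each panel 1 strand moves by at least 0.80 on average and the other by at most 0.38.

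Of the 8 intervals called on both strands, 6 fell on both, 1 rose on both and 1 was called lower on the F strand and higher on the R strand. The last of these, chosen after its values were seen, was chr4:138653689-138688814, where the F strand went from 9.77, 9.89 and 9.83 to 9.43, 9.24 and 9.22 and the R strand from 7.11, 7.00 and 7.03 to 7.72, 7.56 and 7.81. Neither strand overlapped between genotypes, and the difference of -1.18 was called (-1.50 to -0.86, adjusted p = 0.0062). It was the single one of the 8 with a called strand difference. With normexp correction the R strand changed by 0.40 and was no longer called.

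The rise on both strands was at chr18:3003075-3016150, by 0.65 on F (9.78, 9.69 and 9.69 to 10.42, 10.50 and 10.18) and 1.05 on R (7.88, 8.17 and 8.09 to 9.12, 9.15 and 9.01). The falls on both were at chr5:96591892-96606467, chr11:35805295-35817263 (-0.98 and -1.07), chr14:55433382-55452757 (-0.80 and -0.71), chr1:175654606-175672031 (-0.65 and -0.61), chr4:73870498-73881323 (-1.15 and -0.57) and, named after its values were seen, chr2:25182970-25188091 (-0.53 and -0.71). With normexp correction neither strand was called at chr1:175654606-175672031 (-0.33 and -0.48) and chr2:25182970-25188091 (-0.37 and -0.48), nor was the R strand at chr14:55433382-55452757 (-0.46). At chr11:35805295-35817263 the strands' changes differed by 0.09, with an interval of -0.40 to 0.59 that is too wide to call them equal. None of the 8 was called on both strands in every sample set, since leaving out 1 sample left 0 or 1 interval called on both.

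Probes that share an interval strand and intervals that lie together were read side by side. Of 232 interval strands with several detected probes (519 probes), all probes were called in 6, some in 20 and none in 206. The 6, named after their values were seen, were 3 that rose, all on X, and 3 that fell. Those that rose were the R strand of chrX:120324027-120326909, the F strand of chrX:121520904-121524132 and the R strand of chrX:92139043-92140820 (0.94 and 0.65). With normexp correction only the middle one of these still had all probes called, with 0.40 and 0.41 for the smaller changes at the first and 0.45 for that at the last. Those that fell were the F strand of chr5:96591892-96606467, the R strand of chr14:55433382-55452757 (-1.38, or -0.63 with normexp correction, and -0.71) and the F strand of chr19:12084892-12085332 (-0.88 and -0.58). At chr19 the values went from 9.58, 9.32 and 9.54 to 8.66, 8.59 and 8.57 and from 9.99, 9.97 and 9.89 to 9.37, 9.39 and 9.34, without overlap. Joining intervals within 50 kb gave 1671 clusters, 22 with at least 2 called probes, and in 20 of the 22 the calls ran in 1 direction. Those with 4 calls each were chr1:175654606-175717250 (4 of 9 detected probes lower), chr5:96591892-96606467 (4 of 4 lower) and chrX:92119889-92157256 (4 of 5 higher). Probes of a cluster can lie on 1 transcript and are not independent.

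The floor of detection divided a few loci by genotype. Probes well above background in all 3 samples of one genotype and in none of the other numbered 10 for B41HET and 5 for B41KO, or 0.225% and 0.112% of the 4449, beside 145 and 47 of all 56605 probes (0.256% and 0.083%). These probes were picked by that pattern, and the detected ones passed through the genotype in which they were high, so the counts are a description. Beyond those given above and chosen after their values were seen, chr5:22801058-22939737 on the R strand was at least 1.71-fold lower in B41KO, chr15:3946037-3972747 on the F strand at least 1.62-fold lower, and chr17:29383810-29384205 on the F strand at least 1.42-fold higher. With normexp correction the changes of these 3 were -0.17, -0.12 and 0.12. The other 8 were not called, and in some of them the genotypes overlapped, so no fold is given.

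Printing of a probe in many spots gives a measure of technical error. For 5 interval probes with 10 spots per array, the median SD among spots of 1 array was between 0.05 and 0.18 on the log2 scale. One of them, on the R strand of chr2:167085700-167117795, named after its value was seen, was higher in B41KO by 0.75 ± 0.08 (adjusted p = 0.0088), and the other 4 were not called, with changes of -0.18 to 0.23.

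Named long noncoding RNAs were read beside the intervals. Of 46 on a list of well known ones, 35 had a probe matched by accession, 30 were detected and 1 passed the test, Rian, an RNA of the imprinted Dlk1-Dio3 locus, which rose by 0.60 (adjusted p = 0.0403). Its neighbour Mirg, from the same locus, changed by 0.41 (adjusted p = 0.0384), below the fold threshold, and Meg3 by -0.27. Neat1, the scaffold of paraspeckles, changed by 0.33 (adjusted p = 0.0823) and Xist was not detected. The list had a median change of 0.01, beside 0.02 over all detected probes. Over all curated noncoding transcripts, 58 of 1573 detected probes were called (3.69%), 34 higher and 24 lower. Their median change was 0.065 with 60.1% above 0, close to the 0.064 and 61.1% of the detected interval probes.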

How the data were processed

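Total RNA of sorted microglia was hybridised to 1-colour Agilent mouse arrays. For each array the authors deposited the scanner's intensities, from Feature Extraction 11.5.1.1 per the file headers, which were background-subtracted within the array. A further table deposited by the authors holds processed log2 values of unstated scale and was used as an alternative. Control spots were dropped here, as were the 95 to 136 flagged outlier spots among 59305 on each array, log2 intensities were quantile normalized as the methods name, and spots of a probe were averaged. Tests ran on 56601 probes with 2 or more values per genotype, 4448 of them interval probes. Genotype was fitted with limma 3.58.1 in R 4.3.3 (with data.table, version 1.17.8), and p-values were adjusted by Benjamini-Hochberg over all probes. Strand differences were fitted in the same way over 620 intervals. The thresholds are those of the methods. Scripts were tested on simulated data. Python 3.11.15 with matplotlib 3.10.9 drew the figures.

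The probes given by name were the 8 largest called increases and decreases without overlap, the 6 brightest, the 6 largest called strand differences, up to 6 intervals called on both strands, the clusters with the most calls and the probes nearest the fold threshold. All other loci given by name, those of X and Y among them, were chosen after their values were seen. Members, lists and rules were chosen with earlier results of these data known. Coordinates are those of the probe names, on mm9 per the file headers. Genes were named through RefSeq accessions (33767 probes). Alternatives were another scaling, the table of the authors, normexp correction of the median spot signals by their local background (offset 50), which changes the signal column too, a filter on dim probes, outlier spots kept, a trended and robust variance, replicate number or slide row as a block, other fold thresholds and each sample left out.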

Additional observations from a re-analysis of the deposited data

How the results depend on the processing

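The reported counts were 93 interval probes higher and 103 lower in B41KO, 19 of the higher ones on X, 31 called strand differences and a median change of 0.064. With normexp correction they were 34 higher, 48 lower and 7 on X. A fold threshold of 1 left 30 higher, 28 lower and 11 on X. Slide row as a block, which leaves B41KO replicate 1 against 3 B41HET samples, gave 11 higher, 9 lower, 3 on X and 1 strand difference. Leaving out 1 sample gave 23 to 41 higher, 36 to 65 lower, 7 to 9 on X and 12 to 24 strand differences, and the median then ran from 0.036 to 0.081. Testing all intervals with both strands, detected or not, gave 20 strand differences. Aligning arrays on the 75th percentile moved the median change to 0.11, while that of all detected probes became 0.072. The cause of these shifts was not tested. Counts stayed within 1.5 times the reported ones with the 75th percentile, the table of the authors, the filter on dim probes, outlier spots kept, the trended variance, no fold threshold and, for strand differences, the mean over probes. Detected interval probes numbered 3777 with 1 array required and 3298 with all 6.

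Replicate numbers are shared by the genotypes in the labels, but same-numbered samples deviated together with correlations of 0.078, -0.01 and 0.111, so they were not treated as pairs. With the replicate block, limma called 0 interval probes higher, 0 lower and 0 on X (553 higher and 365 lower at an unadjusted p under 0.05, 43 higher on X) and 17 strand differences. The smallest adjusted p of an interval probe was then 0.0518.

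Of 69 interval probes given by name and run under 14 alternatives, 56 were called, and none of these kept the call in every alternative. The call was lost in more than 6 alternatives, and at most 9, for 30 of the 56, in 2 to 6 for 18, and under the replicate block alone for 8. With slide row as a block 47 of the 56 lost it. With normexp correction 27 lost it, and 31 changes shrank by over 1.5 times. The 8 were those at chr14:70483555-70484159, chr2:181663381-181664097, the R strands of chr5:96591892-96606467, chr2:32950586-32984936 and chr6:129151512-129208737, and 1 probe each on the F strand of chr5:96591892-96606467, the R strand of chrX:120324027-120326909 and the F strand of chrX:121520904-121524132. Uncalled probes near 0 changed sign. With the 75th percentile, chr5:125861675-125880125 was at 0.11 and chr18:47313842-47315840 at 0.024. With normexp, chr17:39982023-39983277 was at -0.015 and the F strand of chr2:32950586-32984936 at -0.024. With slide row as a block, chr14:78924115-78938125 was at -0.095, chr5:125861675-125880125 at 0.16 and chr7:82902248-82955248 at -0.019. Without 1 sample, chr14:78924115-78938125 ran from -0.021 to 0.088, chr17:39982023-39983277 from -0.0032 to 0.054, chr5:125861675-125880125 from -0.10 to 0.13, chr7:82902248-82955248 from -0.020 to 0.048, the R strand of chr1:87343550-87362900 from -0.023 to 0.080 and the F strand of chr2:32950586-32984936 from -0.047 to 0.20.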
